A study of Mus musculus with 6 samples.

Results

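The 8 genes described here encode the 3 transforming growth factor beta (TGF-beta) ligands (Tgfb1, Tgfb2 and Tgfb3), the 4 latent TGF-beta binding proteins (Ltbp1 to Ltbp4) and thrombospondin 1 (Thbs1), an activator of the latent ligand. They were taken by name from a deposited table of 22413 genes, and all 8 were present. They were chosen with earlier results on these libraries in view, so their counts and levels between genotypes are given as a description and were not tested. The libraries are bulk RNA sequencing of retinal ganglion cells, which carry visual signals from the eye to the brain, from adult mice. In 3 libraries the genotype was Tgfbr1flx/flx;Vglut2Cre/+ (called Cre 1, 2 and 3 here), and in 3 it was Tgfbr1flx/flx;Vglut2+/+ (control 1, 2 and 3). All 6 carry both floxed copies of Tgfbr1, the type I receptor for TGF-beta, and Cre is expressed from the gene for vesicular glutamate transporter 2, which is active in many glutamatergic neurons besides ganglion cells. The labels do not say how the cells were isolated, whether a library is 1 animal or a pool, or at what exact age the mice were used, so the spread between libraries may be partly technical. In the study these mice serve to ask what the receptor does in protection of ganglion cells by extracellular vesicles.

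TGF-beta is secreted in an inactive form. Each ligand is cut into a mature growth factor and a propeptide, the latency-associated peptide, which stay bound to each other and hide the growth factor from its receptors. Most latent binding proteins are disulfide-linked to that complex and anchor it to fibrillin and fibronectin in the matrix, and integrins, proteases or thrombospondin 1 release the active ligand. In the retina and its vessels the pathway is known for its role in vascular maturation and in the survival of retinal neurons.

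The libraries held 8098891 to 21126291 counts in the Cre group and 7486359 to 16372260 in the control group. A count of 0 allows up to 3 counts, which is 0.142 to 0.401 CPM depending on the library (CPM, the count scaled to the library's total), and this limit covers counting error only. A gene is called detected at 10 counts or more. The Cre libraries detected 5790 to 7209 genes and the controls 4258 to 4863, a difference that runs through the whole table and stands beside every result below. Control 3 stood apart. Its 15 ganglion cell markers summed to 894.1 CPM, against 3136 to 4933 CPM in the other libraries, it had 0 counts of Slc17a6, the gene whose locus drives Cre, and its 11 endothelial markers summed to 6344 CPM, against 35.93 to 796.2 CPM. It detected 11 of 11 endothelial markers and 6 of 15 ganglion cell markers, against 8 to 12 of the latter in the other libraries. Not all ganglion cell markers were low in control 3. Rbpms (256.7 CPM) and Ebf1 (283.3 CPM) were above their values in every library but Cre 3, whereas Thy1 (0.0611 CPM) and Nefl (5.19 CPM) were lowest there. Of the ganglion cell markers, Pou4f2 stayed at 1 count or fewer in every library, and Sncg was well above 10 counts in all 6. In bulk RNA, fewer cells of a type and less RNA per cell cannot be told apart.

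The 8 genes were either well counted or nearly absent in a given library. Of their 48 values (8 genes in 6 libraries), 22 were 0, 16 were 1 to 5 counts, and 10 lay between 152 and 1575 counts, with none in the interval from 6 to 151. For the 5 of these genes that reached 10 counts in some library, that is 0 of 30 values. Over all 11977 genes that did so, 11.5% of values fell in that interval. The interval was set after the values were seen. Of the 10 detected values, 7 were in the Cre libraries (3, 3 and 1 in Cre 1, 2 and 3) and 3 in the controls, all in control 3. Of all 22413 genes, 6738, 7209 and 5790 were detected in Cre 1, 2 and 3. In controls 1, 2 and 3 these were 4258, 4463 and 4863, so more detections with Cre are not particular to the 8 genes. Controls 1 and 2 held 5 and 2 counts over all 8 genes. Thinning every library to 7486359 counts left the same 7 and 3 detections. The low-count filter of the genome-wide fit, which asks for counts in at least 3 libraries, passed 1 of the 8 genes, Thbs1. In that fit (edgeR's quasi-likelihood test over 5727 genes) 0 genes passed at an adjusted p under 0.05, a background of 0.0%, and 281 (4.91%) had an unadjusted p under 0.05. DESeq2 on the same genes called 305 (5.33%) and limma voom 88 (1.54%). None of these tests is read for the members.

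**Figure D1:**
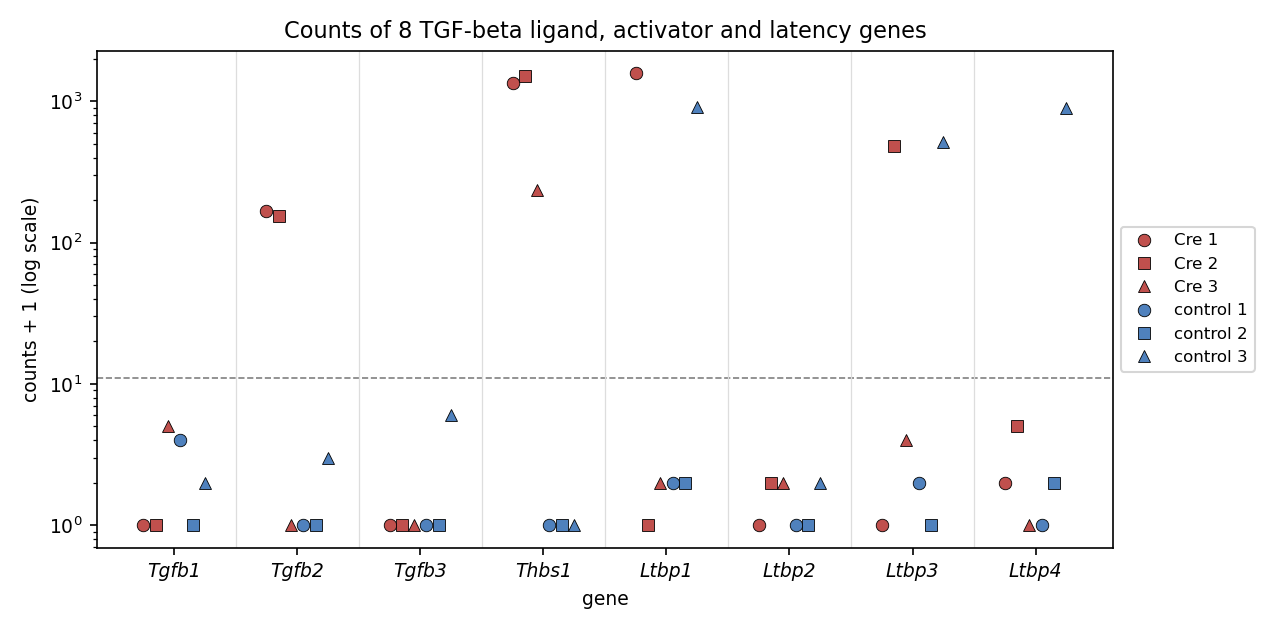
Counts plus 1 (log axis) of each of the 8 genes in the 6 libraries, Cre in red and control in blue, with circles, squares and triangles for libraries 1, 2 and 3; the dashed line is the detection limit of 10 counts. Points fall either at 5 counts or fewer or at 152 and more, and Thbs1 is the gene with all Cre libraries above all controls.

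Of the ligands, Tgfb2 was the one detected. This isoform has known roles in eye development and in the aqueous humour. Tgfb2 (mm10 chromosome 1, 186622792 to 186705989, minus strand) had 167, 152 and 0 counts in Cre 1, 2 and 3 and 0, 0 and 2 in controls 1, 2 and 3. It was thus present in Cre 1 and Cre 2 and at 2 counts or fewer in the other 4 libraries, so the genotypes overlapped through Cre 3. The level was low even where present, 11.98 CPM in Cre 1 and 7.20 CPM in Cre 2, above 28% and 17% of the genes detected in those libraries. The Cre mean was 6.39 ± 6.03 CPM and the control mean 0.0407 ± 0.0705 CPM (SD, n = 3 each). The ratio of depth-scaled group totals, 319 counts against 2, was 131 with a 95% exact binomial interval of 36.0 to 1087, which covers counting error only and not the spread that leaves Cre 3 at 0. Detection in Cre 1 and Cre 2 alone was shared by 394 genes, 3.29% of the 11977.

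Tgfb1, the most widely expressed isoform in the body and the main one of immune cells and platelets, had 0, 0 and 4 counts in the Cre libraries and 3, 0 and 1 in the controls (chromosome 7, 25687002 to 25705077). Tgfb3, known for its role in palate fusion, had 0 in every Cre library and 0, 0 and 5 in the controls (chromosome 12, 86056745 to 86079041). Neither was detected in any library, and the groups of each overlap. On the opposite strand Tgfb3 overlaps Ttll5, a tubulin polyglutamylase with 61 counts in Cre 3 and 837 in control 1. In those libraries Tgfb3 was at 0. If strand was not used in counting, reads of genes that overlap on opposite strands cannot be told apart. Summed over the ligands, the libraries held 11.98, 7.20 and 0.494 CPM with Cre and 0.258, 0 and 0.489 CPM without.

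The sequence upstream of the detected ligand gene is shown beside that of the undetected Tgfb1. The table of RefSeq promoters (build GRCm38.p6) matched 6 of the 8 genes, all but Tgfb3 and Thbs1. The 250 bases before the listed start are printed 5′ to 3′ on the gene's strand, and capitals mark matches on either strand to 5 motifs: the TATA box TATAAA, the Sp1 site GGGCGG, the E-box CACGTG, the cyclic AMP response element TGACGTCA and the SMAD half-site CAGAC.
Tgfb1, chr7:25686752-25687001, plus strand: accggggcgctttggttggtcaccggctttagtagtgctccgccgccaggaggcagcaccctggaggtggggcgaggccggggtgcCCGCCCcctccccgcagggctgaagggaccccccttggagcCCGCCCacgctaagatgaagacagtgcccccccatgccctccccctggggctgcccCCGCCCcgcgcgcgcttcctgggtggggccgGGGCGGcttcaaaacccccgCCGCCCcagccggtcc
Tgfb2, chr1:186705990-186706239, minus strand: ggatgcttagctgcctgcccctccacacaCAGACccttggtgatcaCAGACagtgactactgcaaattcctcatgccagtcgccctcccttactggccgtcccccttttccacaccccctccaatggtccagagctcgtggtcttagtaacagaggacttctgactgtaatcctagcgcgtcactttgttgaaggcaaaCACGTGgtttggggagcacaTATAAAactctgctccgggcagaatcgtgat
Tgfb1 had 5 matches to the Sp1 site and none to the other motifs. Tgfb2 had no Sp1 match, 1 TATA box at -31 to -26 from the start, 1 E-box at -51 to -46, and 2 SMAD half-sites at -221 and -204. Of 32536 windows of this length in the table, 33% hold the Sp1 site, 12.3% the TATA box, 6.04% the E-box and 42.2% the SMAD half-site. A match describes letters in this window and shows no binding.

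Thbs1 encodes thrombospondin 1, a large matrix glycoprotein of platelets, vessels and glia that binds the latency-associated peptide and frees the ligand. It also limits angiogenesis and promotes synapse formation through other receptors. Thbs1 (chromosome 2, 118111876 to 118127133, plus strand) had 1342, 1513 and 233 counts in Cre 1, 2 and 3 and 0 in each control. These are 96.3, 71.6 and 28.8 CPM, and every Cre library lay above every control. Such a separation with Cre higher occurred for 593 of 5727 tested genes (10.4%), and with Cre lower for 132 (2.3%). The mean was 65.6 ± 34.2 CPM with Cre (SD, n = 3). By depth-scaled group totals, 3088 counts against a floor of 3 counts over the whole control group, Thbs1 was at least 846-fold higher with Cre, a bound on counting error only. The 3 Cre libraries still differed among themselves: Thbs1 lay above 68.6% of the detected genes in Cre 1, above 60.9% in Cre 2 and above 29.3% in Cre 3. After thinning to equal depth it had 717, 545 and 220 counts.

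The pattern of Thbs1, 10 counts or more in every Cre library and 0 in every control, was shared by 122 of the 11977 genes (1.02%), and 58 of the 122 had a higher mean CPM than Thbs1 in the Cre libraries. The reverse pattern was found for 3 genes. By the Pearson correlation of log2(CPM + 1) over the 6 libraries, 2 of the 3 genes most like Thbs1 were Scd1 (r = 0.999), a fatty acid desaturase, and Vezf1 (r = 0.998), a zinc finger transcription factor. Scd1 had 1035, 1119 and 236 counts in the Cre libraries and 1, 0 and 1 in the controls, and Vezf1 had 1709, 1336 and 211 against 0, 0 and 1. Of 5446 genes compared, 117 had r above 0.95. These points share the same 6 libraries and the same gap between detected and undetected, and the correlations are a description.

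Vessels, platelets and glia are known sources of thrombospondin 1, and their markers varied between libraries. Endothelial markers summed to 486.2, 353.5 and 796.2 CPM in Cre 1, 2 and 3 and to 427.1, 35.93 and 6344 CPM in controls 1, 2 and 3. Control 3, with 23749 counts of the endothelial cadherin Cdh5, had 0 of Thbs1. The 9 markers of pericytes and smooth muscle, the contractile cells of the vessel wall, summed to 361.8, 42.41 and 578.1 CPM with Cre and to 0.172, 0 and 314.4 CPM without. The pericyte regulator Rgs5 had 2773, 678 and 903 counts against 0, 0 and 3034. Of 3 platelet and red cell markers in the table, Itga2b, Hbb-bs and Hbb-bt, the highest value was 7 counts. The 9 Müller glia markers summed to 132.0, 227.7 and 509.5 CPM with Cre and 511.6, 778.7 and 732.2 CPM without, and of the 6 astrocyte markers 1 was detected, S100b in control 2. The part of these cell types in the Thbs1 difference was not tested.

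Of the latent binding proteins, Ltbp1 and Ltbp3 each had 1 high library per genotype, Ltbp4 had 1 high library in all, and Ltbp2 had none. Ltbp1 binds all 3 latent ligands and is the main anchor of the complex in the matrix. It had 1575, 0 and 1 counts in Cre 1, 2 and 3 and 1, 1 and 915 in controls 1, 2 and 3 (chromosome 17, 75005568 to 75392512, plus strand). Cre 1 and control 3 were high and the other 4 libraries were at 1 count or fewer, so each genotype held 1 high library. The means were 37.7 ± 65.2 CPM with Cre and 18.7 ± 32.2 CPM without (SD, n = 3 each), an SD above the mean in each group. The annotation places a processed pseudogene, Gm6276, inside Ltbp1, and it is not analysed here.

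Ltbp3, which binds latent TGF-beta and has known roles in bone and teeth, had 0, 479 and 3 counts in the Cre libraries and 1, 0 and 510 in the controls (chromosome 19, 5740904 to 5758532, plus strand). Its high libraries were Cre 2 and control 3, at 22.7 and 31.2 CPM, and the groups overlapped. Ltbp4, which also takes part in elastic fibre assembly, had 1, 4 and 0 counts with Cre and 0, 1 and 895 without (chromosome 7, 27305136 to 27337692, minus strand). Its level of 54.7 CPM in control 3 was its one detection. Ltbp2, which binds fibrillin but not latent TGF-beta and is needed for the zonule of the lens, had 0, 1 and 1 counts against 0, 0 and 1 (chromosome 12, 84783212 to 84876532).

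Ltbp1, Ltbp3 and Ltbp4 were thus detected together in control 3, where they summed to 141.7 CPM. That is the library with the highest endothelial marker sum and the lowest ganglion cell marker sum. Without control 3, every control value of the 4 binding proteins was 0 or 1 count. The Cre libraries had Ltbp1 (Cre 1), Ltbp3 (Cre 2) or no binding protein above 3 counts (Cre 3), with sums over the 4 genes of 113.1, 22.9 and 0.617 CPM. Detection in control 3 alone, as for Ltbp4, was found for 479 genes (4.0% of 11977), in Cre 1 and control 3 alone, as for Ltbp1, for 200 (1.67%), and in Cre 2 and control 3 alone, as for Ltbp3, for 182 (1.52%). The part of vascular cells in these values was not tested.

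**Figure D2:**
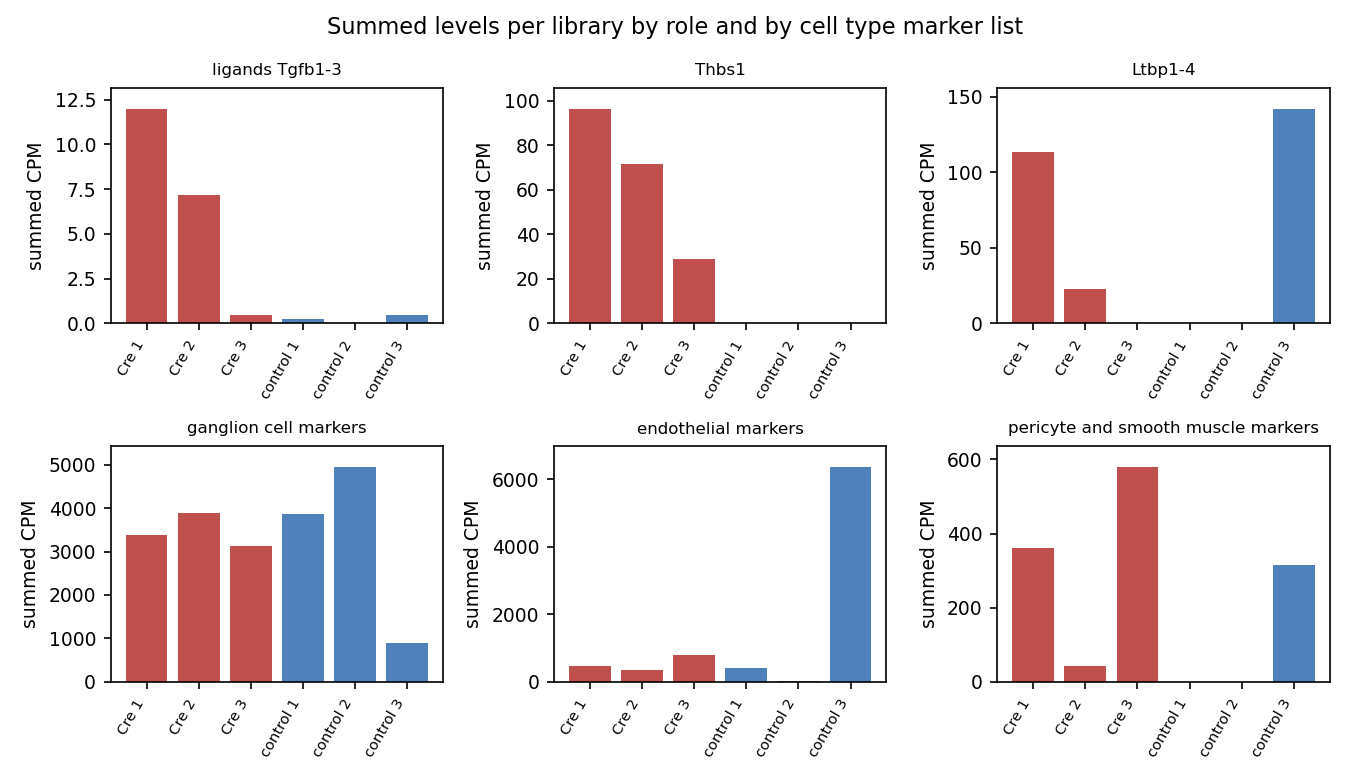
Summed CPM per library (linear axes from 0, red for Cre and blue for control) of the ligands, Thbs1, the 4 latent binding proteins, and the ganglion cell, endothelial and pericyte and smooth muscle marker lists. Ligand and Thbs1 counts lie mainly in Cre libraries. The binding proteins sum to 113.1, 22.9 and 0.617 CPM in Cre 1, 2 and 3. They sum to 0.172, 0.267 and 141.8 CPM in controls 1, 2 and 3. The endothelial markers sum to 486.2, 353.5 and 796.2 CPM in Cre 1, 2 and 3. In controls 1, 2 and 3 these markers sum to 427.1, 35.93 and 6344 CPM.

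The upstream sequences of Ltbp1 and Ltbp3, which each had 1 high library per genotype, are shown for comparison with those of the ligands, with the same 5 motifs in capitals. For Ltbp1 the window lies before the more upstream of 2 listed starts.
Ltbp1, chr17:75005279-75005528, plus strand: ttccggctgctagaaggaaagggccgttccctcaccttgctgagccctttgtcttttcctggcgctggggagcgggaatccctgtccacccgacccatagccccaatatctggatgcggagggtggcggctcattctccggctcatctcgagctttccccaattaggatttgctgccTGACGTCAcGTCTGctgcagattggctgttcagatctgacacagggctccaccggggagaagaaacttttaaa
Ltbp3, chr19:5740650-5740899, plus strand: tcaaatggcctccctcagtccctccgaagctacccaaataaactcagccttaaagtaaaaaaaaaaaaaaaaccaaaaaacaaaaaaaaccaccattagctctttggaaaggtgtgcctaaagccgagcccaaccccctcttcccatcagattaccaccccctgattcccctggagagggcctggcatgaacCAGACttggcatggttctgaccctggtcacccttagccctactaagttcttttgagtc
The Ltbp1 window held 1 cyclic AMP response element at -73 to -66, a motif found in 1.56% of all windows, and 1 SMAD half-site at -64 to -60. The Ltbp3 window held 1 SMAD half-site at -58 to -54. Neither held a TATA box, an Sp1 site or an E-box in these letters.

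Levels of different genes can be compared per gene length, in the deposited FPKM (counts scaled by gene length and library total). In Cre 1 the order was Thbs1 (16.5 FPKM), Ltbp1 (14.5 FPKM) and Tgfb2 (1.41 FPKM). In Cre 2 it was Thbs1 (12.2 FPKM), Ltbp3 (4.11 FPKM) and Tgfb2 (0.844 FPKM), and in Cre 3 Thbs1 stood alone at 4.92 FPKM. In control 3 it was Ltbp4 (8.87 FPKM), Ltbp1 (7.15 FPKM) and Ltbp3 (5.65 FPKM). Where a ligand was detected, Thbs1 and a binding protein were therefore at higher FPKM than the ligand in the same library. With single libraries behind most of these levels, neighbours in the order have no replicate spread to set them against, apart from Thbs1 at 11.2 ± 5.84 FPKM with Cre (SD, n = 3).

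By library, Cre 1 held a ligand (Tgfb2), Thbs1 and Ltbp1, and Cre 2 held Tgfb2, Thbs1 and Ltbp3. Cre 3 held Thbs1 alone, control 3 held 3 binding proteins with no ligand and no Thbs1, and controls 1 and 2 held none of the 8. The signalling receptors Tgfbr1 and Tgfbr2 followed this division only in part. Tgfbr1 had 46, 0 and 793 counts in the Cre libraries and 1, 0 and 1538 in the controls. The type II receptor Tgfbr2 had 3741, 8 and 0 against 1, 0 and 14192, and was detected in Cre 1 and control 3 as Ltbp1 was. Cre 1 was thus the only library with Tgfb2, Thbs1, a binding protein and both receptors detected, and control 3 had both receptors with no detected ligand. Tgfbr3, given below, was detected in Cre 1, 2 and 3 and control 3 and was at 0 in controls 1 and 2. Rgs5, given above, and Bgn, given below, had the same pattern, so it is not particular to Tgfbr3. Controls 1 and 2 also detected the fewest genes of all libraries (4258 and 4463). The share of all genes with this pattern was not counted. The listed receptors Acvrl1 and Eng were detected in control 1 (2008 and 803 counts), which held none of the 8. The counts cover the whole Tgfbr1 gene and do not separate its floxed part.

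Other genes of the pathway were taken from lists by function, 85 symbols of which 77 were in the table and 35 were tested. None passed at an adjusted p under 0.05 in edgeR's quasi-likelihood test (background 0.0%), and 1, Col3a1, had an unadjusted p under 0.05. DESeq2 called 1, again Col3a1, and limma voom 0. Col3a1 passed the low-count filter through its Cre libraries alone, so its p and its call are not read as support. The log2 fold change (Cre over control) was positive for 21 and negative for 14, with a median of 0.50 against 0.14 over all 5727 tested genes, of which 54.2% were positive. With DESeq2's size factors the split was 19 to 16, and the median of all genes moved to -0.13. With 1 library left out, the split was 19 to 19 without Cre 1 and without Cre 2, 23 to 21 without Cre 3, 23 to 20 without control 1, 22 to 22 without control 2 and 26 to 11 without control 3, where the median of all genes was 0.56.

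Among genes that process or activate the latent complex, 7 of 18 were tested, 2 positive and 5 negative. Itgav, the integrin subunit that binds the latency-associated peptide, had 1612, 2247 and 459 counts with Cre and 1, 2807 and 1 without, so it was high in control 2 and absent in the other controls. Its partners Itgb6 (not analysed here) and Itgb8 are the known activating subunits, and Itgb8 had a single count, in control 1. Itgb5 had 1255, 792 and 1 counts against 0, 0 and 2077. Itgb1, a subunit shared by many matrix receptors, was at 71.0 ± 59.0 CPM with Cre and 606.4 ± 842.7 CPM without (SD, n = 3 each), with 25795 of its control counts in control 3. Adamts1, a secreted protease, was at 74.4 ± 21.9 CPM with Cre and 415.7 ± 528.7 CPM without. Neither passed the test.

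Of the matrix anchors and traps, 4 of 13 were tested, 3 positive and 1 negative. Fn1, fibronectin, was present in 5 libraries, with 13424, 8935 and 2965 counts with Cre and 6557, 1 and 9288 without. Fbn1, fibrillin 1, had 13, 0 and 302 against 45, 0 and 0. Bgn, the proteoglycan biglycan, which binds TGF-beta, had 2882, 758 and 1414 against 0, 0 and 1057, and the groups overlapped through control 3. Fbln5, an elastic fibre protein, had 1, 34 and 0 counts against 0, 1 and 14905, and Emilin1, which holds back TGF-beta maturation, had 192, 17 and 0 against 0, 0 and 825. Control 3 was thus the high control for Bgn, Fbln5 and Emilin1, as for the latent binding proteins.

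Of the thrombospondin relatives of Thbs1, Thbs2, Thbs4 and Comp were nearly absent, at 4 counts or fewer in every library. Thbs3 had 542 counts (72.4 CPM) in control 2 and 0 elsewhere. Of the receptors, the integrin-associated protein Cd47 was present throughout, at 238.3 ± 49.1 CPM with Cre and 195.1 ± 122.5 CPM without (log2 fold change 0.41 ± 1.69, SE). Cacna2d1, the calcium channel subunit through which thrombospondins act on synapses, had 3585, 27 and 1397 counts with Cre and 2, 0 and 82 without (log2 fold change 6.55 ± 3.82), and the groups overlapped in counts and in CPM. Calr, calreticulin, was at 230.8 ± 148.9 and 133.9 ± 47.7 CPM, and Lrp1, its partner in thrombospondin signalling, at 16.0 ± 10.1 and 37.4 ± 44.4 CPM. In the list, 4 of 9 were tested, 3 positive and 1 negative, and none passed.

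**Figure D3:**
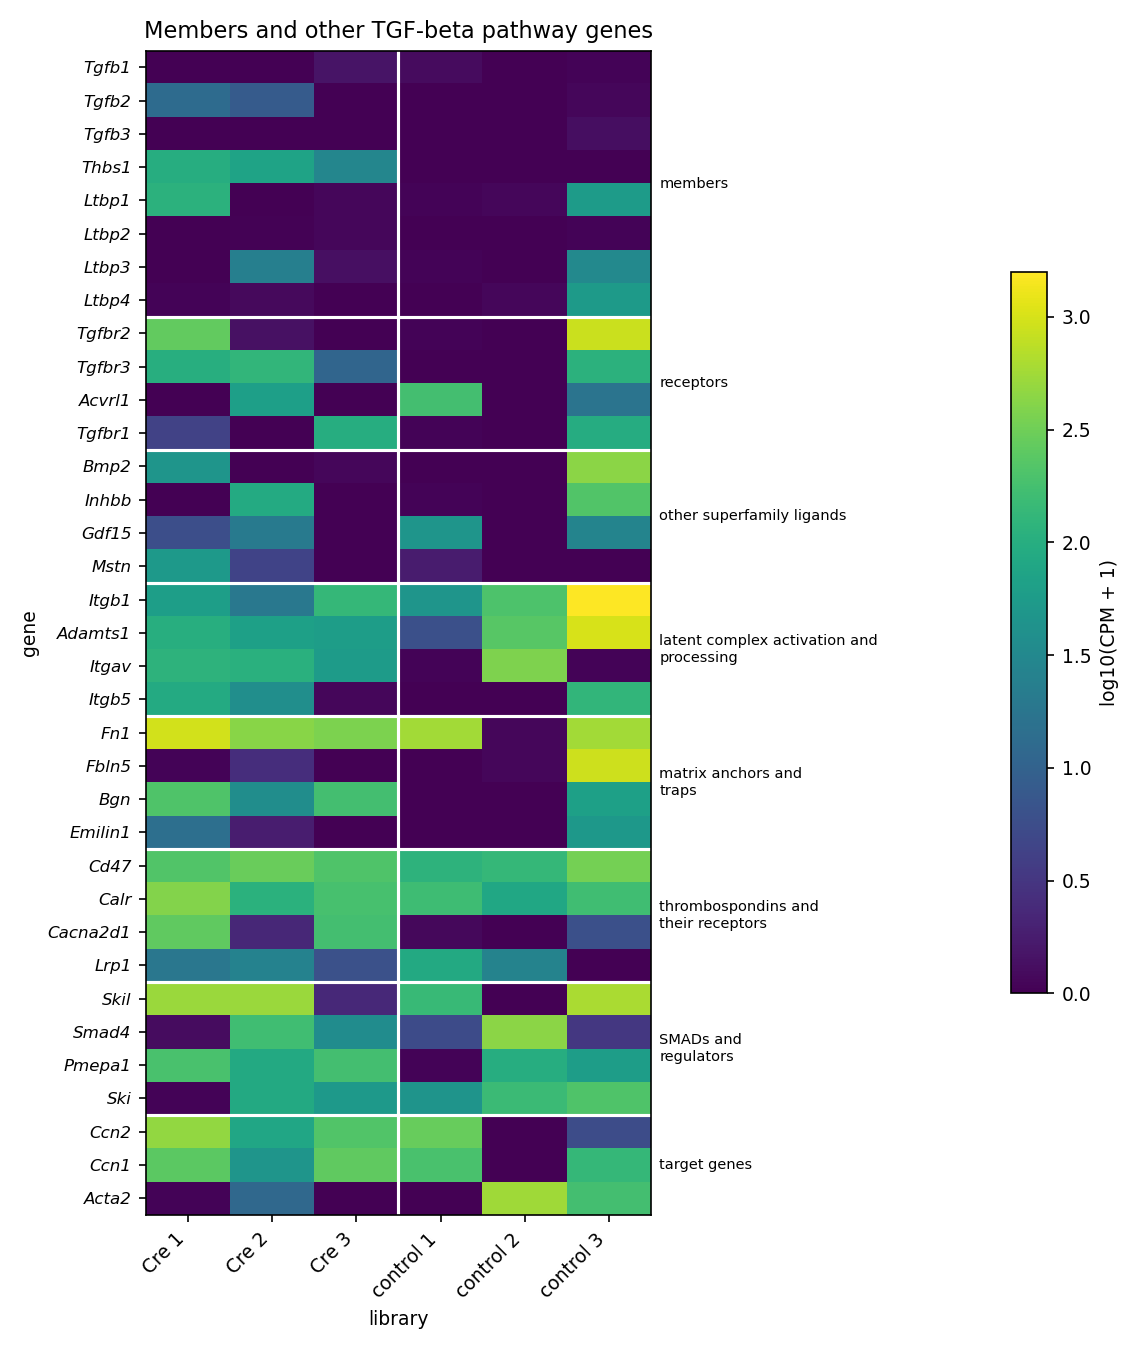
Level of the 8 genes and of up to 4 genes with the highest mean CPM in each pathway list (3 of the target genes), as log10(CPM + 1) by library, with a white line between Cre (left) and control (right). The upper block shows Thbs1 in all Cre libraries. It shows Ltbp1 in Cre 1 and control 3, Ltbp3 in Cre 2 and control 3, and Ltbp4 in control 3 alone. Cd47 is present in all 6 libraries.

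Of the other ligands of the superfamily, 1 of 12 was tested, Gdf15, which was negative and did not pass. Bmp2 had 641, 0 and 1 counts with Cre and 0, 0 and 7240 without, Inhbb, an activin subunit, had 0, 1881 and 0 against 1, 0 and 3483, and Mstn, myostatin, had 710, 71 and 0 against 9, 0 and 0. Gdf15 is a stress-induced cytokine and had 67, 403 and 0 against 536, 0 and 443. Of the receptor list 4 of 5 were tested, 2 positive and 2 negative. Tgfbr3, betaglycan, which presents TGF-beta 2 to the signalling receptors, had 1378, 2678 and 81 counts with Cre and 0, 0 and 1832 without, and Acvrl1, an endothelial type I receptor, had 0, 1311 and 0 against 2008, 0 and 265. Among SMADs and their regulators 7 of 9 were tested, 5 positive and 2 negative. Skil, a SMAD corepressor, was at 346.1 ± 298.6 CPM with Cre and 253.4 ± 323.1 CPM without, and Ski at 46.1 ± 43.1 and 133.4 ± 81.5 CPM. Smad4, the common SMAD, had 4, 3413 and 283 counts against 51, 3291 and 37. Pmepa1, an induced inhibitor, was at 150.3 ± 56.0 and 52.5 ± 49.3 CPM.

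Genes known to be induced by TGF-beta were tested for 8 of 11, 6 positive and 2 negative, and none passed. Ccn2, connective tissue growth factor, was at 255.4 ± 203.6 CPM with Cre and 95.8 ± 162.0 CPM without, and Ccn1 at 183.6 ± 120.1 and 108.4 ± 98.1 CPM. Acta2, smooth muscle actin, had 1, 231 and 0 counts against 0, 4089 and 2885. Col3a1, a fibrillar collagen, had 985, 544 and 86 counts with Cre and 0, 0 and 2 without. In edgeR its log2 fold change was 9.60 ± 4.21 (SE), with an unadjusted p of 0.0331 and an adjusted p of 0.842. The size of this fold change rests on control counts near the floor. Col3a1 passed the low-count filter through its Cre libraries alone, so these values are a description and not support. Like Thbs1 it was detected in every Cre library and in no control. Every Cre library lay above every control, as for 593 of 5727 tested genes (10.4%).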

How the data were processed

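Each of the 6 libraries started from 1 ng of RNA, per the labels' protocols. The authors deposited 2 tables of 22413 genes, one of raw counts and one of FPKM. The submitters' processing notes list HISAT2, HTSeq, fastp, DESeq2 and R 3.2.0 beside the mm10 build, without saying what each did. Strand setting and gene annotation: not given in the sources used here. Dividing counts over library total by the deposited FPKM gave 1 length per gene in all libraries (relative spread at most 6.5e-07). There were 0 columns of other samples and 0 rows without a gene name.

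Levels are CPM on column totals. All genes were fitted with edgeR 4.0.16 in R 4.3.3 (robust quasi-likelihood test on genotype alone, after filterByExpr and TMM, with Benjamini-Hochberg adjusted p), with DESeq2 1.42.0 and limma 3.58.1 as alternatives. The script was tested on simulated data. Descriptions used Python 3.11.15. Gene positions are from GENCODE on GRCm38 and sequences from RefSeq. The members, lists and rules were chosen with earlier results of these data known. The text names all members, the 4 genes with the highest mean CPM of each pathway list, and the 3 tested genes most correlated with each member that passed the filter. Tgfbr1, Slc17a6, Itgb8, Itgb6, Fbn1, Thbs2, Thbs3, Thbs4, Comp and Col3a1, and overlapping genes, were named beside that rule. So were Eng, Rbpms, Ebf1, Thy1 and Nefl. A few genes under the rule are left out of the text. Amplified reads that carry no molecular identifiers are not independent, so intervals and floors cover counting error only.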

Additional observations from a re-analysis of the deposited data

How the results depend on the processing

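The count of genes past the threshold in edgeR, 0, was also 0 with DESeq2's size factors, with no filter on low counts, and with limma on log2(FPKM + 1) or log2(FPKM + 0.1). It was 305 with DESeq2 (828 genes without an adjusted p) and 88 with limma voom. With 1 library left out it ran from 0 to 7 (2 without Cre 1, 7, 3 and 4 without controls 1, 2 and 3). The cause was not tested. With the replicate number as a block it was 0. The numbers do not pair the samples by the labels, and same-numbered libraries did not deviate together (r = -0.02, 0.03 and -0.01 over genes). The fitted log2 fold change of Thbs1, 12.85, is set by the prior count or pseudocount because all controls are at 0, and its sign is fixed by the counts. It ran from 3.47 on log2(FPKM + 1) to 13.32 without Cre 3. Of 24 gene and library values per genotype, 7 were detected with Cre and 3 in the controls. At 1 count or more these were 14 and 12, and at 50 counts or thinned to equal depth 7 and 3. With 1 library left out they ran from 4 to 6 with Cre and from 0 to 3 in the controls, the 0 being without control 3. Tgfb1, Tgfb3 and Ltbp2, at 5 counts or fewer in every library, lay close to the 3 counts that a value of 0 allows.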

Other observations

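Markers of other retinal cells were also uneven. Of the Müller glia markers, Clu and Apoe were highest and Dkk3 was under 10 counts throughout. The 9 amacrine markers summed to 159.7 to 764.3 and 87.6 to 467.7 CPM, with Tfap2b and Pax6 highest and Slc6a9, Chat, Slc18a3 and C1ql2 under 10 counts. Of the 11 microglia and macrophage markers, which summed to 1.11 to 460.2 and 2.41 to 134.2 CPM, Cx3cr1, P2ry12, Tmem119, C1qb and C1qc were among those under 10 counts in every library, while Cd68 and Lyz2 were highest. The 6 astrocyte markers summed to 0.0473 to 0.144 CPM with Cre and 0.366 to 69.9 CPM in the controls, with S100b in control 2 as the one detection. The 5 fibroblast markers summed to 0.189 to 19.9 and 0 to 0.489 CPM, the 7 photoreceptor markers to 0.0947 to 13.0 and 0 to 136.0 CPM, the 5 bipolar markers to 147.8 to 179.5 and 0 to 163.1 CPM, and the 4 pigment epithelium markers to 0 to 0.864 and 0.134 to 107.5 CPM. Pmel, a melanosome protein, had 1760 counts in control 3, which made up nearly all of the last value.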
